A study of Mus musculus with 26 samples.

Results

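The endothelium of MCA313 tumours was examined after 24 h of interferon gamma (IFNγ) in mice in which endothelial cells are the cells that carry the IFNγ receptor. The arrays were chosen by their labels, 2 labelled 24 h and 3 labelled 0 h, which makes 5 of the 26 arrays of the series. All 5 came from female mice of 4 to 6 months, with the genotype PIG-Pdgfb-Cre-IFNγ-del in the labels, in which Cre is driven by Pdgfb. MCA313-IFNγ-IND tumours had grown to about 1 cm in diameter, and the tumour cells were then either induced to make IFNγ (24 h) or left without induction (0 h). CD31+/CD146+ cells were sorted from the digested tumour, 5000 to 15000 cells per sample, and about 500 pg of their RNA was carried through 12 amplification cycles. The labels number the replicates without saying that each came from its own animal, so the spread between samples may be technical. The p-values use a spread within groups that is pooled over the 9 groups of all 26 arrays, and not that of these 5 arrays alone. In this bulk RNA, a change in the share of a cell type in the sorted population and a change in RNA per cell cannot be told apart.

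IFNγ binds a receptor of the Ifngr1 and Ifngr2 chains, which signals through the kinases Jak1 and Jak2. Early target genes such as Irf1 carry gamma-activated sites (GAS) at their promoters, and IRF proteins in turn bind interferon-stimulated response elements (ISRE). Endothelial cells are known to respond with GTPases of cell-autonomous immunity, antigen presentation and chemokines, and in tumours IFNγ is known to act on the vessels themselves.

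Each gene was given a pair of values from its probe sets that name that gene and no other. The mean of all of them is the value used unless the text says otherwise, and the brightest one is the alternative. Levels are log2 expression, and changes are log2 differences, 24 h minus 0 h, with their standard error. A gene was called when its p-value, adjusted over all genes in limma, was under 0.05. The genes tested numbered 4386 of 5109, almost all on chromosomes 1, 10, 11, 12 and 13, and statements on a gene group cover its measured members. The median of the probe sets of an array was 5.78 to 5.88. Arrays correlated at r = 0.946 to 0.950 within 0 h and 0.927 within 24 h, and the second 24 h array at 0.915 to 0.925 with the 0 h arrays. Precision is limited by how few arrays each group has.

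Pecam1, which encodes the CD31 used in the sort, was far above the array medians in both groups. It read 11.70, 11.62 and 11.70 at 0 h and 11.45 and 11.42 at 24 h. Its change of -0.24 ± 0.14 was not past the test (adjusted p = 0.459), although the groups do not overlap. Ifngr1, which encodes the ligand-binding chain, read 10.01, 11.44 and 11.56 at 0 h and 11.59 and 11.52 at 24 h. Control replicate 1 was thus the low sample for the receptor, and the change of 0.55 ± 0.39 was not past the test (adjusted p = 0.595). Ifng itself lay at 3.79 to 3.97 at 0 h and 3.99 and 4.14 at 24 h, below the array medians in every sample.

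With the mean of probe sets 123 genes passed the test at 24 h, 2.8% of those tested, 58 higher (1.32%) and 65 lower (1.48%). Before adjustment 671 genes (15.3%) were under 0.05. Of all genes, 54.4% stood lower at 24 h. With the brightest probe set 30 genes passed (0.684%), 24 higher (0.547%) and 6 lower (0.137%), with 479 (10.9%) under 0.05 before adjustment. Both values called 22 genes, 19 higher and 3 lower, so the mean value added 62 falls and 39 rises. Of the 101 genes called by the mean value alone, 97 had the same sign at the brightest probe set. The median standard error was 0.211 with the mean value and 0.318 with the brightest probe set, and across genes the changes had r = 0.705. Of the 123 genes, 120 had at least 3 in 4 of their probe sets moving the same way. For 38 the dimmer group averaged below the array medians, and since background was not measured their sizes are uncertain. With quantile normalization of all arrays the split was 58 higher and 41 lower. The count rested on single arrays: it was 38 without control replicate 1, 73 without the first and 14 without the second 24 h array.

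**Figure D1:**
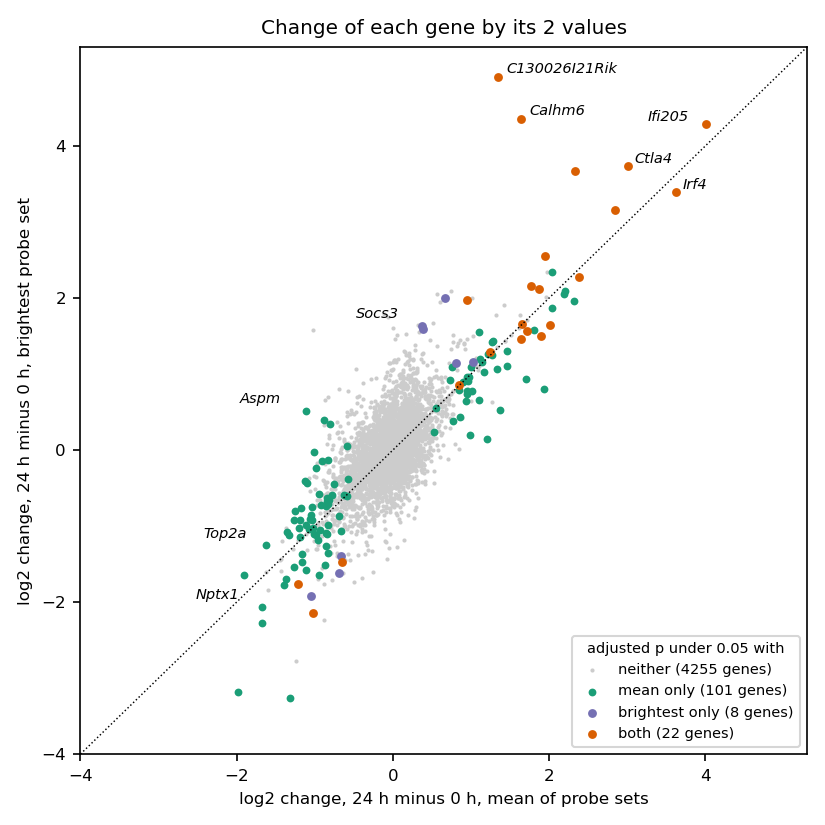
Log2 change of each of 4386 genes with the mean of its probe sets (horizontal axis) and with its brightest probe set (vertical axis); colours give which value called the gene and the dotted line marks equal change. The 101 genes called by the mean value alone lie mostly along the line, on both sides of 0, whereas Calhm6 and C130026I21Rik lie far above it.

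The interferon-inducible GTPases, which attack the vacuoles of intracellular pathogens, rose nearly as a whole. Of 7 measured members 6 rose, against 1.32% of all genes, and the median change was 1.71 (-0.03 over all genes). All 7 had both 24 h arrays above every 0 h array, which 13% of all genes did. Irgm1, which regulates the family, read 7.30, 8.48 and 9.03 at 0 h and 10.03 and 9.94 at 24 h. It rose by 1.71 ± 0.28 (adjusted p = 0.00187), 3.28-fold, with all 6 of its probe sets higher. Gm12250 read 7.19, 9.53 and 10.15 at 0 h and 11.15 and 11.17 at 24 h. Its 24 h arrays were nearly equal while its controls lay far apart, and it rose by 2.20 ± 0.49 (adjusted p = 0.0148). Gm5431 rose by 2.19, 9930111J21Rik2 by 2.04, Irgm2 by 1.46 and Ifi47 by 1.00. Igtp read 8.67, 10.41 and 10.89 at 0 h and 11.40 and 11.15 at 24 h, a change of 1.28 ± 0.37 that was not past the test (adjusted p = 0.0657). With the brightest probe set 1 member, Irgm1, passed. In a limma fit of the 5 arrays alone, with the mean value, 9930111J21Rik2 passed (adjusted p = 0.0467). Gm5431 (0.0681), Irgm1 (0.101), Ifi47 (0.155), Irgm2 (0.177) and Gm12250 (0.187) did not pass in that fit. Without control replicate 1 the median was 1.23 and 2 members passed, and without the first or the second 24 h array 1 did.

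Because GAS and ISRE are the sites through which IFNγ and IRF proteins act, their letters were looked for in the promoters of the genes tested. GAS was searched as TTCNNNGAA, which reads the same on both strands, and ISRE as GAAA, any 2 bases and GAAA again, on either strand, in RefSeq windows of 250 bases before to 50 after each annotated start (GRCm38.p6), with overlapping matches counted apart. Of 3574 tested genes with a window, 8.37% held a GAS and 4.06% an ISRE. Of 53 called higher with a window, 8 (15.1%) held a GAS and 14 (26.4%) an ISRE, and of 57 called lower 2 (3.51%) held a GAS and 2 (3.51%) an ISRE. Of the 7 GTPases 3 held a GAS and 4 an ISRE. Irf4, Ctla4, Il18rap, Gdap10, Nampt and Gm5431, all among the larger rises, held no match of either kind in this window. The 150 bases before the start are shown for 7 risers chosen because they hold a match, to show how the letters lie there; capitals mark GAS or ISRE letters, 5′ to 3′ on the strand of the gene. Irgm1 (chr11:48871421-48871570, minus strand) has a pair of overlapping ISREs 30 and 24 bases before its start, and Gm12250 (chr11:58183693-58183842, plus strand) has a GAS 61 bases before its start between ISREs at 91 and 46. Irgm2 lies at chr11:58214827-58214976 on the plus strand, Ifi205 at chr1:174031756-174031905 and Ifi207 at chr1:173741810-173741959 on the minus strand. Irf1 lies at chr11:53769864-53770013 on the plus strand and Slamf8 at chr1:172590569-172590718 on the minus strand. A match is a description of letters and not a measured site.
Irgm1: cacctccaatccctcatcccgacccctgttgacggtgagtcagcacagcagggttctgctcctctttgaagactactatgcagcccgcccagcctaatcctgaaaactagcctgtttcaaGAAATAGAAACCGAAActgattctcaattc
Irgm2: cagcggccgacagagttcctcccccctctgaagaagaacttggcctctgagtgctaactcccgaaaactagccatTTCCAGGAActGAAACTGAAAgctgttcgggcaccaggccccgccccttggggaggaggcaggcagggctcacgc
Gm12250: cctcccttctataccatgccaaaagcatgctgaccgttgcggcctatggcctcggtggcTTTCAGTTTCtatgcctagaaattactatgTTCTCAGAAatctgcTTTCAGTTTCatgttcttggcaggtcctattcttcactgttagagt
Ifi205: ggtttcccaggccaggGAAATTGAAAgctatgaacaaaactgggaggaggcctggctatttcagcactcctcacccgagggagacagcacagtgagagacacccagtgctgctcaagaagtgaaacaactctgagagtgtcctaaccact
Ifi207: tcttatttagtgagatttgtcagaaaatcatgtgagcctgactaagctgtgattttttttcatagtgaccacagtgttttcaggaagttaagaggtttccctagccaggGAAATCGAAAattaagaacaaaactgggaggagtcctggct
Irf1: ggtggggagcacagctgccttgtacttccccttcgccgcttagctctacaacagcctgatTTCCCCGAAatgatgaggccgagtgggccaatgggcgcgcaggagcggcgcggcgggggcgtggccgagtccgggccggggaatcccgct
Slamf8: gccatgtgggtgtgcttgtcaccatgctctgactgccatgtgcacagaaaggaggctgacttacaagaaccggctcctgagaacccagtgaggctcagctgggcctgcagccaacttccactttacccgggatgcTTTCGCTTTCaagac

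The Ifi200 family, nuclear and cytosolic DNA sensors and their relatives, held the largest rise of all. Of 12 measured members 5 rose, against 1.32% of all genes, and none fell, with a median change of 1.45. In 9 of them both 24 h arrays lay above every 0 h array, which 13% of all genes did. Ifi205 read 5.20, 5.93 and 7.52 at 0 h and 10.20 and 10.26 at 24 h. It rose by 4.01 ± 0.44 (adjusted p = 9.78e-06), 16.1-fold. Ifi207 read 4.83, 5.47 and 5.85 at 0 h and 8.48 and 7.98 at 24 h, and rose by 2.84 ± 0.32. Each stretch shown above holds 1 ISRE, 134 bases before the start of Ifi205 and 41 before that of Ifi207. Ifi211 rose by 1.65, Ifi213 by 1.46 and Mndal by 1.24. Ifi209 (1.96), Ifi206 (1.63), Ifi203 (1.43) and Ifi204 (1.33) were as high but had adjusted p-values of 0.0528 to 0.0969. Aim2, the sensor of cytosolic DNA in the inflammasome, stood at -0.11 and Ifi202b at -0.16, so the family did not move as one. Members are near-identical in places and probes may bind several of them, so values of single members are uncertain. Without control replicate 1, or without either 24 h array, 2 members passed.

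Of 15 genes of the receptor, its kinase pathway and the IRF family, 2 rose, both transcription factors, against 1.32% of all genes. Irf4, best known from lymphocytes and macrophages, read 4.59, 4.31 and 5.67 at 0 h and 8.47 and 8.50 at 24 h. It rose by 3.63 ± 0.38 (adjusted p = 5.55e-06), 12.4-fold, with all 11 probe sets higher, from a level below the array medians. Irf1, an early target gene of IFNγ, read 8.13, 8.78 and 9.28 at 0 h and 9.79 and 9.99 at 24 h. It rose by 1.16 ± 0.26 (adjusted p = 0.0148), with 16 of 17 probe sets higher, and it is not past the test with its brightest probe set (1.02, adjusted p = 0.0527). Its promoter above holds a GAS 90 bases before the start. Without control replicate 1 or either 24 h array Irf1 lost its call, with adjusted p up to 0.214. Stat2 (0.75), Stat3 (0.36) and Stat5b (0.40) were not past the test. Socs3, the feedback inhibitor of cytokine receptors, showed how a single probe set can carry a call. Its brightest probe set read 8.25, 8.68 and 8.93 at 0 h and 10.35 and 10.14 at 24 h, a rise of 1.63 ± 0.19 (adjusted p = 7.55e-05). The mean of its 6 probe sets changed by 0.38 ± 0.15 (adjusted p = 0.206), and 4 of them were higher.

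Among 20 antiviral and other interferon-stimulated genes 4 rose and 17 stood higher, with a median of 0.36. Of all genes 1.32% were called higher and 45.6% stood higher. Nampt, the rate-limiting enzyme of NAD salvage, read 6.64, 7.98 and 8.17 at 0 h and 9.36 and 9.62 at 24 h, and rose by 1.89 ± 0.32 (adjusted p = 0.00211). Sp140, a nuclear body protein of the immune system, rose by 1.87 and Dhx58, a regulator of RNA sensing, by 1.27. Wars, the tryptophanyl-tRNA synthetase and a classic IFNγ target, rose by 1.10 from a level already at 10.19 to 11.55. Rsad2 (0.21) and Cmpk2 (0.13), which are known best as targets of type I interferon, were not past the test. Without the second 24 h array no member of the list passed, and without control replicate 1 2 did.

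Protease inhibitors of the Serpina3 and Serpinb clusters rose in 4 of 17 measured members, against 1.32% of all genes, with a median of 0.60. Serpina3g read 7.71, 9.53 and 10.27 at 0 h and 11.28 and 11.68 at 24 h, a rise of 2.31 ± 0.56 (adjusted p = 0.0239). Serpina3f rose by 1.81, Serpinb1b by 1.71 and Serpinb9, the inhibitor of granzyme B, by 1.11. The spread of the Serpina3g and Serpina3f controls followed that of the GTPases, with control replicate 1 lowest. Without that control Serpinb1b alone of the list passed, the list's median was 0.21 and Serpina3f changed by 1.05 (adjusted p = 0.214). Without the first 24 h array 1 member passed, and without the second none did. Of 8 Schlafen genes, regulators of lymphocyte growth and of RNA, Slfn5 rose, by 0.86 ± 0.18 (adjusted p = 0.00990) with all 11 probe sets higher. Slfn2 passed at its brightest probe set (1.16) and not with its mean (1.02, adjusted p = 0.0694).

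Of the chemokine and antigen processing genes measured here 1 passed the test. Over all genes 1.32% were called higher and 1.48% lower, so none or 1 in such short lists says little about them. None of 17 chemokines and chemokine receptors passed in limma, and the median was 0.06. Ccl5, a T cell attractant, read 6.86, 7.54 and 8.20 at 0 h and 9.21 and 8.50 at 24 h, a change of 1.32 ± 0.42 (adjusted p = 0.0946). Ccl2, a monocyte attractant, stood 0.74 lower, at 9.54 and 9.80 against 9.84 to 10.81, and was not past the test (adjusted p = 0.176). Of 11 antigen processing genes, mostly subunits of the standard proteasome, 1 rose: Lgmn, a lysosomal endopeptidase, by 0.77 ± 0.18 (adjusted p = 0.0212), with 16 of 17 probe sets higher. None of 6 complement regulators passed, with Cd55 at -0.84 and C1qbp at -0.45. The venular adhesion list had none of 7 past the test. Its member with the largest change, Sele, which encodes E-selectin, read 9.80, 10.05 and 9.32 at 0 h and 7.67 and 8.52 at 24 h. All 13 of its probe sets were lower, and the change was -1.63 ± 0.45 (adjusted p = 0.0523).

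**Figure D2:**
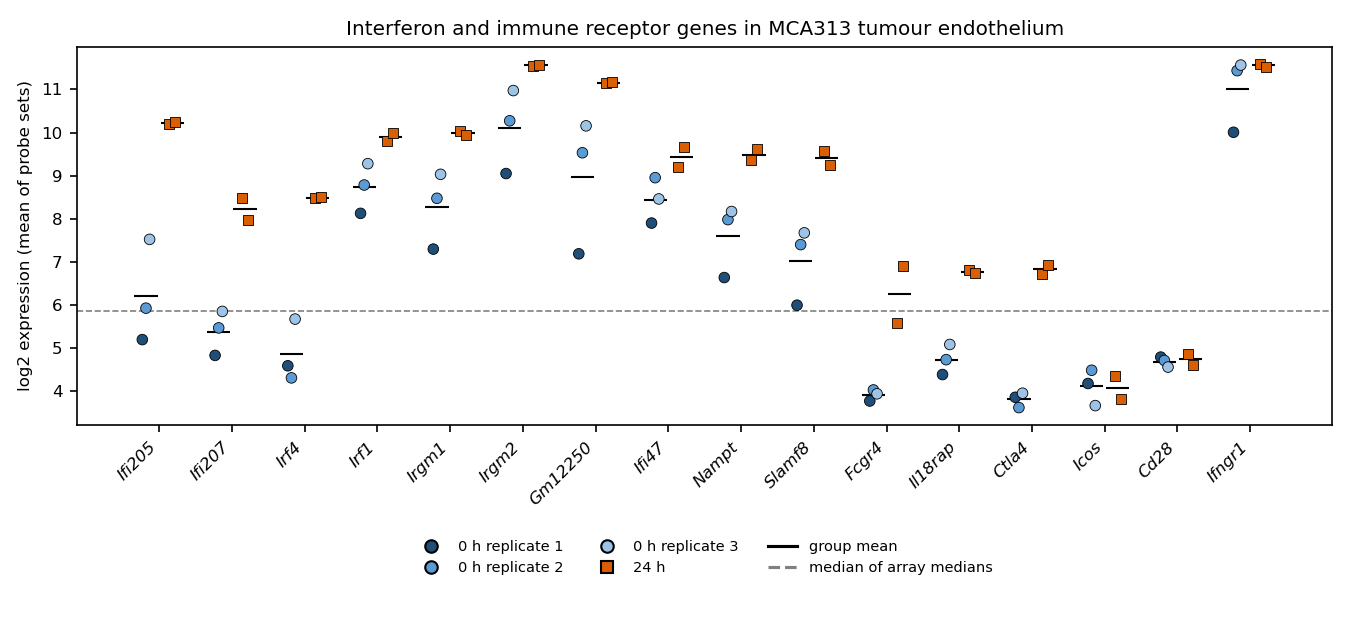
Log2 expression (mean of probe sets) of 16 genes in each array of MCA313 tumour endothelium: circles are the 3 arrays at 0 h, squares the 2 arrays at 24 h, bars the group means and the dashed line the median of the array medians. Both 24 h arrays lie above every 0 h array for all genes but Icos, Cd28 and Ifngr1, and control replicate 1 is the lowest for most of them.

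The controls themselves differed in these genes. Control replicate 1 had the lowest of the 3 values in 48 of the 58 genes called higher (82.8%), against 30.6% of all genes. It had the highest value in 48 of the 65 called lower (73.8%), against 37.8%. The median SD over the controls was 0.35 among the genes called higher and 0.174 over all genes. The summed GTPase level, on the log2 scale, was 10.73, 12.18 and 12.68 at 0 h and 13.46 and 13.43 at 24 h, and Ifngr1 was lowest in the same control. The part of this control in the results was not tested beyond the fits without it.

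Receptors known from immune cells were among the clearest rises. Ctla4, the inhibitory receptor that competes with Cd28 for B7 ligands, read 3.86, 3.62 and 3.96 at 0 h and 6.73 and 6.92 at 24 h. It rose by 3.01 ± 0.21 (adjusted p = 3.35e-09), 8.07-fold, with 10 of 11 probe sets higher, and its 0 h values lay below the array medians, so the size is uncertain. Its adjusted p was 2.7e-08 to 1.47e-06 in the fits without 1 array and 0.00347 with the MCA313 arrays alone. Slamf8, a receptor of the SLAM family on myeloid cells, read 6.00, 7.40 and 7.67 at 0 h and 9.58 and 9.24 at 24 h, and rose by 2.39 ± 0.33 (adjusted p = 2.94e-04). Its promoter above has an ISRE 15 bases before the start. Fcgr4, an activating Fc receptor, read 3.78, 4.03 and 3.94 at 0 h and 5.59 and 6.91 at 24 h. It rose by 2.33 ± 0.49 (adjusted p = 0.0102), with the 24 h arrays more than 1 log2 unit apart. It lost its call without control replicate 1 or the second 24 h array. Il18rap, the accessory chain of the interleukin 18 receptor, read 4.39, 4.73 and 5.09 at 0 h and 6.81 and 6.75 at 24 h. It rose by 2.04 ± 0.34, with all 16 probe sets higher.

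No other leukocyte marker on the lists passed the test. Of all genes 1.32% were called higher and 1.48% lower, and of 9 T cell markers Ctla4 alone passed. Cd28 stood at 0.05, Icos at -0.03, Prf1 at -0.23 and Cd247 at 0.59 (adjusted p = 0.202). The summed level of the 8 other T cell markers was 7.73 to 8.02 at 0 h and 7.85 and 8.13 at 24 h, and 7 of them lay below the array medians in both groups. Of 17 myeloid markers Slamf8 and Fcgr4 passed. Ptprc, the pan-leukocyte CD45 gene, stood at -0.00, Lyz2 at 0.04, Itgb2 at -0.01 and Fcgr3 at 0.63 (adjusted p = 0.322). The summed level of the 15 other myeloid markers was 8.81 to 8.98 at 0 h and 9.04 and 9.07 at 24 h, with 13 of them below the array medians in both groups. None of 5 B cell, 7 fibroblast, 4 pericyte and smooth muscle, and 2 erythrocyte and platelet markers passed. Their largest changes were Cr2 (0.32), Fcmr (0.26), Prrx1 (0.51), Mfap4 (-0.25), Rgs5 (0.36), Pln (0.15), Slc4a1 (-0.24) and Itga2b (0.22). The checkpoint and SLAM list had 2 of 15 higher, which are Ctla4 and Slamf8 again. The part of contaminating cells in these rises was not tested.

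Genes of the cell cycle stood lower almost throughout. Of 22 mitosis genes 21 stood lower and 5 fell, against 54.4% and 1.48% of all genes, with a median of -0.63. In 16 of them both 24 h arrays lay below every 0 h array, which 20.6% of all genes did. Nuf2, part of the outer kinetochore, read 5.97, 5.86 and 6.46 at 0 h and 4.15 and 4.22 at 24 h, a fall of 1.91 ± 0.42 (adjusted p = 0.0129). Top2a, the topoisomerase that untangles replicated chromosomes, read 7.56, 7.09 and 7.57 at 0 h and 5.92 and 5.65 at 24 h. It fell by 1.62 ± 0.41 (adjusted p = 0.0290), with 31 of 32 probe sets lower. Aspm, a spindle pole protein, fell by 1.11 with 24 of 27 probe sets lower, although its brightest probe set stood at 0.51 (adjusted p = 0.845). It lost its call whichever of the 5 arrays was left out (adjusted p = 0.0573 to 0.131 in limma for the 0 h arrays). Without the first or the second 24 h array its change was -0.80 and -1.43. Both group means of Aspm lay below the array medians, so the size is uncertain. Hmmr, a spindle assembly factor, fell by 1.03 and Fbxo5, which restrains the anaphase-promoting complex, by 0.97. Cdk1 (-1.28, adjusted p = 0.0694) and Birc5 (-1.43, adjusted p = 0.0717) had every probe set lower and were not past the test. Pttg1 (0.18) was the only member higher.

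DNA replication genes followed the same direction, with 19 of 20 lower, 2 past the test and a median of -0.70. Of all genes 54.4% stood lower and 1.48% were called lower. Dtl, which directs the destruction of the licensing factor Cdt1, read 6.76, 6.88 and 6.66 at 0 h and 5.58 and 4.59 at 24 h, and fell by 1.68 ± 0.41 (adjusted p = 0.0243). Top2a, counted above, is the other. Cdc6 (-1.21), Prim1 (-0.97) and Mcm3 (-0.95) were lower in both 24 h arrays and had adjusted p-values of 0.0745 to 0.254. Of 5 replication-dependent histone genes 1 fell: H2bc3, from 9.04, 8.80 and 9.21 to 7.58 and 7.71, by 1.37 ± 0.31 (adjusted p = 0.0154). Without the second 24 h array no mitosis or replication gene passed, and without control replicate 1 a single mitosis gene did, with medians of -0.72 and -0.58 for the first list. With the brightest probe set the median of the mitosis list was -0.07, with 13 of 22 lower, and that of the replication list -0.69.

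**Figure D3:**
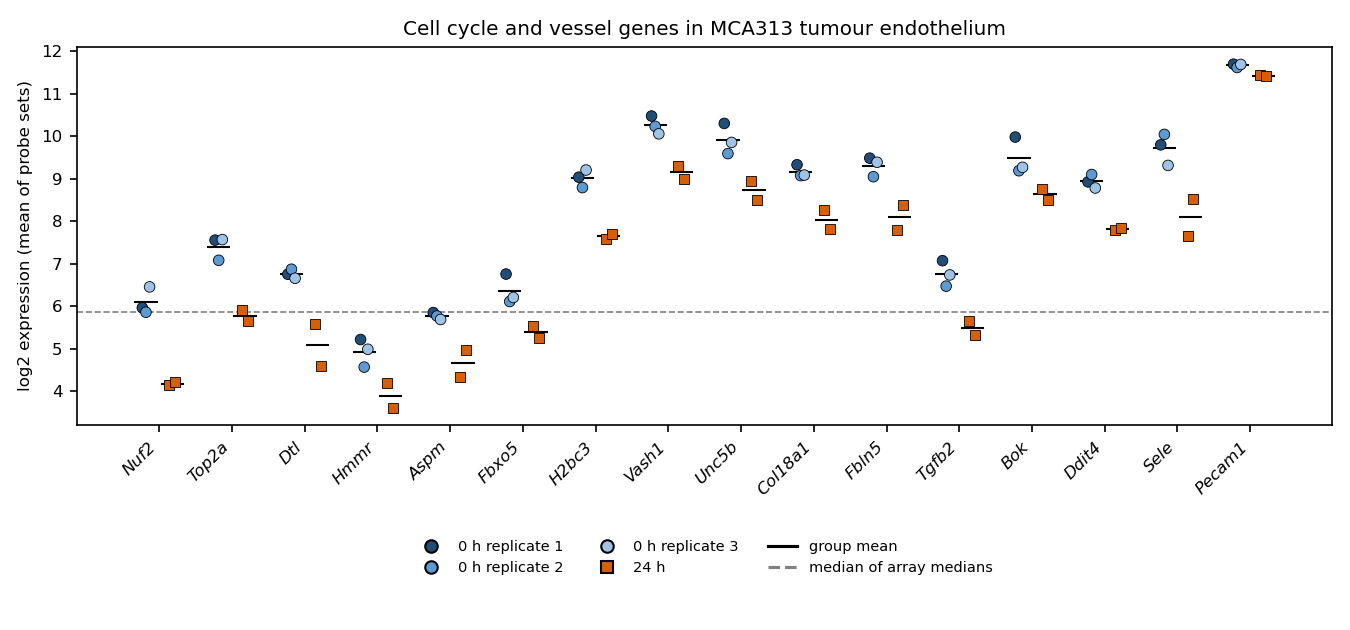
Log2 expression (mean of probe sets) of 16 cell cycle, vessel and matrix genes in each array of MCA313 tumour endothelium, with circles for the 3 arrays at 0 h, squares for the 2 at 24 h, bars for group means and a dashed line at the median of the array medians. The 24 h arrays lie below every 0 h array for all 16 genes, and the 24 h means of Nuf2, Top2a, Dtl, Hmmr, Aspm, Fbxo5 and Tgfb2 lie below the dashed line.

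Genes of the vessel wall passed the test singly, 1 or 2 to a list. Of all genes 54.4% stood lower, 1.48% were called lower and 20.6% had both 24 h arrays below every 0 h array. Of 13 endothelial identity genes 11 stood lower and 1 fell, with a median of -0.35. In 9 of them both 24 h arrays lay below every 0 h array. Vash1, which encodes the angiogenesis inhibitor vasohibin, read 10.48, 10.24 and 10.06 at 0 h and 9.30 and 9.0 at 24 h. It fell by 1.11 ± 0.20 (adjusted p = 0.00374), with all 12 probe sets lower. Clec14a (-0.86), Arhgef15 (-0.69) and Flt4 (-0.45) were lower in both 24 h arrays and not past the test. Of 13 tip cell and guidance genes 10 stood lower and 1 fell, with a median of -0.13. Both 24 h arrays lay below every 0 h array in 6 of them. Unc5b, a netrin receptor of sprouting vessels, read 10.31, 9.60 and 9.86 at 0 h and 8.96 and 8.51 at 24 h, a fall of 1.19 ± 0.28 (adjusted p = 0.0203) with all 15 probe sets lower. Nrp2, a receptor for semaphorins and Vegfc, stood at -0.57 (adjusted p = 0.137).

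Of 11 basement membrane genes 10 stood lower and 1 fell, against 54.4% and 1.48% of all genes. Both 24 h arrays lay below every 0 h array in 5 of them, against 20.6% of all genes. Col18a1, the collagen that releases endostatin, read 9.33, 9.08 and 9.09 at 0 h and 8.27 and 7.81 at 24 h. It fell by 1.13 ± 0.20 (adjusted p = 0.00356) with 25 of 26 probe sets lower, while its brightest probe set changed by -0.41 (adjusted p = 0.572). Lamc1 stood at -0.56, Lama4 at -0.54 and Lamb1 at -0.52, all lower in both arrays and not past the test. Of 17 genes of the interstitial matrix and its regulators 2 fell, and in 3 both 24 h arrays lay below every 0 h array. Tgfb2, a growth factor that induces matrix, went from 7.08, 6.48 and 6.74 to 5.66 and 5.34, a fall of 1.26 ± 0.24 (adjusted p = 0.00426). Fbln5, a protein of elastic fibres, went from 9.49, 9.05 and 9.39 to 7.80 and 8.39, a fall of 1.22 ± 0.29 (adjusted p = 0.0199), with all 12 probe sets lower and the brightest at -1.76. Col1a1 stood at -0.12 and Col3a1 at 0.06, both fibrillar collagens. Without the second 24 h array Vash1, Unc5b, Col18a1, Tgfb2 and Fbln5 all lost their calls. Unc5b and Fbln5 also lost theirs without control replicate 1 (adjusted p = 0.131 and 0.108 in limma). Fbln5 lost it as well without control replicate 3 (adjusted p = 0.0515 in limma) and without the first 24 h array, where it changed by -0.92.

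**Figure D4:**
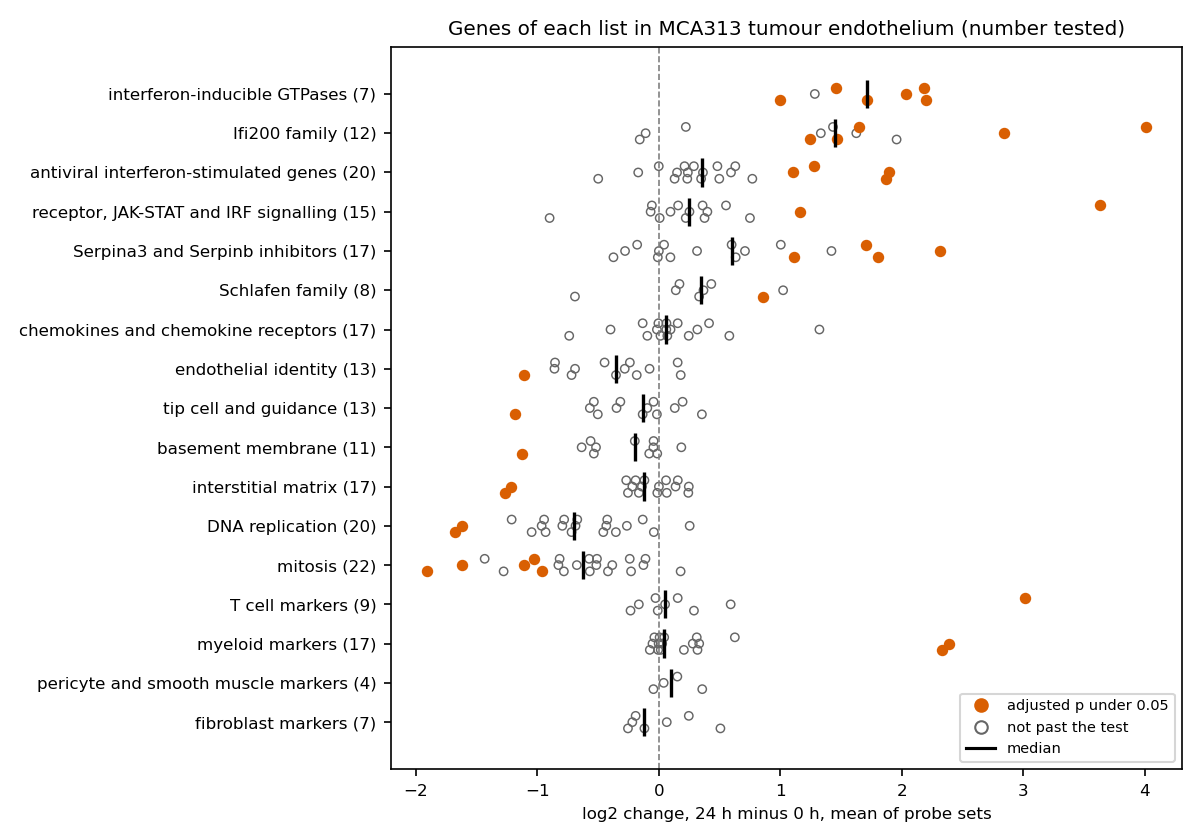
Log2 change at 24 h (mean of probe sets) of each tested gene of 17 lists in MCA313 tumour endothelium; filled points passed the test, open ones did not, and the vertical bar is the median of the list. The GTPase and Ifi200 medians lie at 1.71 and 1.45, the mitosis and replication medians at -0.63 and -0.70, and the marker lists of other cells sit around 0 but for Ctla4, Slamf8 and Fcgr4.

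Cell death, metabolism and stress genes showed few calls, where 1.48% of all genes were called lower. Of 18 apoptosis regulators 1 fell, Bok, a death-promoting relative of Bcl2, from 9.99, 9.19 and 9.27 to 8.77 and 8.51, by 0.85 ± 0.22 (adjusted p = 0.0361). Of 14 glycolysis and hypoxia genes 1 fell, Ddit4, an inhibitor of mTORC1, from 8.93, 9.10 and 8.79 to 7.81 and 7.84, by 1.12 ± 0.27 (adjusted p = 0.0212). None of 16 immediate-early and stress genes passed, with Gadd45b at 0.65 and Ddit3 at 0.54. Both calls were lost without control replicate 1 or either 24 h array, and that of Ddit4 also without control replicate 2 (adjusted p = 0.0677 in limma).

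Other large changes were in genes of no list. Sec61g, a subunit of the channel through which proteins enter the endoplasmic reticulum, read 6.86, 7.11 and 7.65 at 0 h and 9.10 and 9.33 at 24 h, a rise of 2.01 ± 0.37 (adjusted p = 0.00374). Gdap10 read 6.43, 6.83 and 6.66 at 0 h and 8.70 and 8.47 at 24 h, a rise of 1.95 ± 0.28 (adjusted p = 3.58e-04). Its promoter window (chr12:32823866-32824165) lies downstream of that of Nampt (chr12:32820085-32820384), on the same strand. Nampt rose by 1.89, and whether the probe sets of Gdap10 also read Nampt transcript was not tested. Car4, a carbonic anhydrase of capillary surfaces, read 7.63, 7.10 and 8.89 at 0 h and 9.48 and 9.78 at 24 h, a rise of 1.76 ± 0.40 (adjusted p = 0.0154). It lost its call without control replicate 1 or control replicate 2 (adjusted p = 0.0854 and 0.0677 in limma). The call of Car4 was also lost without the first or the second 24 h array, where the change was 1.91 and 1.61. Nptx1, a secreted pentraxin, read 7.62, 7.38 and 7.24 at 0 h and 6.03 and 5.44 at 24 h. It fell by 1.68 ± 0.24 (adjusted p = 3.58e-04), with all 7 probe sets lower. Slc35f1, a solute carrier, fell by 1.98 ± 0.39, to 4.80 and 4.09. Bicd2, a dynein adaptor, fell by 0.65 with the mean value and by 1.48 with the brightest probe set. At the brightest probe set alone 8 genes passed, among them Socs3 and Slfn2 given above. Others included Sphk1, which makes sphingosine 1-phosphate (2.0), Slc16a11 (1.59), Helb (-1.92), Acsf2 (-1.62) and Etv4 (-1.39). Their means stood at 0.67, 0.38, -1.05, -0.68 and -0.67. In contrast Calhm6 and C130026I21Rik, chosen after their values were seen, passed with both values, with rises of 4.36 and 4.91 where the probe set was brightest and of 1.64 and 1.35 over all probe sets.

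Of the 123 genes, 10 stayed past the test whichever of the 5 arrays was left out. The risers among them were Ifi205, Irf4, Ctla4, Ifi207, Slamf8, Il18rap, Gdap10, Irgm1 and C130026I21Rik, and Nptx1 was the faller. When the MCA313 arrays were fitted alone 40 genes passed, 33 of them among the 123. All 123 kept an unadjusted p under 0.05 in that limma fit. This is little of a check, because they were chosen on the same arrays and their changes are identical in it.

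At 48 h, measured against the same 0 h arrays, 136 genes passed (3.1%), 63 higher (1.44%) and 73 lower (1.66%). Ctla4 read 7.95 and 7.09 at 48 h, 3.71 above 0 h. Ifi205 stood 4.26 above 0 h, Irf4 3.25, Slamf8 2.30 and Irgm1 1.54, and all 7 GTPases were called. Ccl5 reached 10.08 and 9.66, 2.34 above 0 h (adjusted p = 0.00294). Sele read 7.23 and 8.21 at 48 h and passed there, 2.0 lower than at 0 h (adjusted p = 0.0125). The mitosis and replication medians were -0.60 and -0.56. The direct contrast of 48 h with 24 h, which uses no 0 h array, called 1 gene (0.0228%), and 198 (4.51%) before adjustment. That gene was Mir329, a microRNA gene with 1 probe set, which read 5.95 and 5.26 at 24 h and 7.71 and 7.36 at 48 h. It was higher at 48 h by 1.93 ± 0.33 (adjusted p = 0.0303). It lost the call without the second 24 h array or either 48 h array. The probe set does not tell its mature arms apart, and these are shown from RefSeq (GRCm38.p6, chr12:109713503-109713524 and chr12:109713541-109713562, plus strand), with the seed, bases 2 to 8, in capitals.
mmu-miR-329-5p: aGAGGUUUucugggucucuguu
mmu-miR-329-3p: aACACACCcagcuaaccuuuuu

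The J558L tumour gave a second look at 24 h with its own controls (2 arrays at 0 h, 3 at 24 h). These were female Rag-/- mice of 4 to 6 months with the receptor on all cells and without mature T cells and B cells, and J558L-IFNγ-GFP-IND tumour cells made an IFNγ-GFP fusion. Tumour, receptor distribution, host lymphocytes and form of the cytokine therefore differ together and cannot be told apart, and levels were not compared between the models because their arrays appear to have been normalized separately. Of the 58 genes called higher in MCA313, 56 (96.6%) stood higher in J558L, against 47.9% of all genes. Of the 65 called lower 59 (90.8%) stood lower, against 52.1%, and 43 of the 123 were called in J558L in the same direction, where 2.12% of all genes were called, 1.09% higher. The median change of the 58 was 1.28 in MCA313, where they were chosen, and 0.98 in J558L. Across all genes the changes had r = 0.617. The GTPase median was 1.11 in J558L with 2 of 7 past the test, and the mitosis and replication medians were -0.88 and -0.86, with 8 and 7 past the test. Sele fell by 1.86 in J558L (adjusted p = 0.0277).

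**Figure D5:**
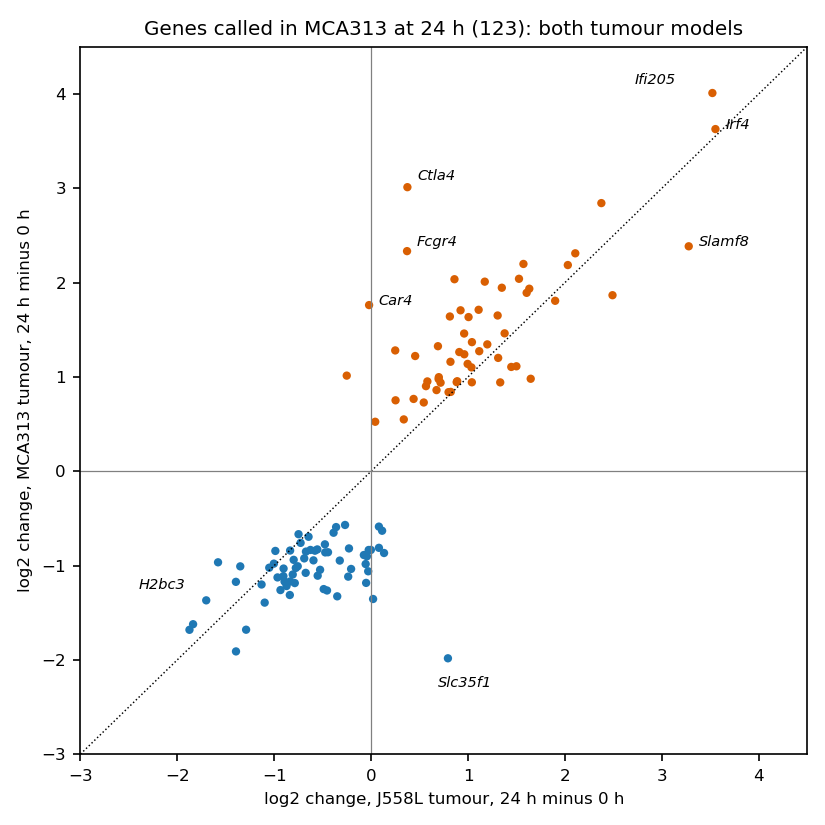
Log2 change at 24 h in J558L tumour endothelium (horizontal axis) and in MCA313 tumour endothelium (vertical axis) of the 123 genes called in MCA313, with the dotted line at equal change; orange genes rose and blue genes fell in MCA313. Most genes lie in the same direction in both models, while Ctla4, at 3.01 and 0.37, lies far from the line.

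The test of the difference between the responses called 1 gene (0.0228%), and 148 (3.37%) before adjustment. Ctla4 read 4.26 and 4.62 at 0 h and 4.81, 4.94 and 4.71 at 24 h in J558L, a change of 0.37 ± 0.21 (adjusted p = 0.587). Its response was larger in MCA313 by 2.64 ± 0.29 (adjusted p = 3.02e-05), and this call held in each alternative and without each array. Irf4 rose by 3.63 in MCA313 and 3.55 in J558L, a difference of 0.07 ± 0.54. Fcgr4 changed by 0.37 in J558L, a difference of 1.96 ± 0.70 that was not past the test. Car4 stood at -0.02 in J558L, a difference of 1.78 ± 0.56 that was not past it either (adjusted p = 0.999 for both). Slc35f1 stood at 0.79 in J558L against -1.98, a difference of -2.78 ± 0.55 (adjusted p = 0.103), which passed without the second J558L array at 24 h.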

How the data were processed

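Arrays of the WT Pico labelling kit were analysed from 1 table of 65535 probe sets and 26 arrays. Its values are log2 expression as deposited by the authors. The submitters' processing notes list limma and Affymetrix Expression Console, while versions, normalization and genome build are not given in the sources used here. A gene's value was the mean of its single-symbol probe sets (53857 in all, median 10 per gene tested) or the one with the highest mean. Left out were 766 probe sets that name several genes and 10912 that name none. A gene was tested if its brightest probe set was above the 50th percentile of the array in at least 2 arrays. limma 3.58.1 under R 4.3.3 fitted 1 linear model with 9 groups over the 26 arrays, so that groups share 1 estimate of spread, with two-sided moderated tests and Benjamini-Hochberg adjustment. The fit was tested on simulated data.

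Members and the 27 gene lists were chosen with earlier results of these data known. The rule for named genes took the 12 largest changes per direction among genes past the test with both gene values and with no overlap of the groups (fewer where fewer passed), up to 4 called members per list (or 2 of the largest if none), 4 per direction called with 1 value only, the calls of the other contrasts, and Pecam1, Ifngr1 and Ifng. Others were named after their values were seen. Alternatives were other filters, quantile normalization, variance prior, array weights, fewer arrays, a replicate block, other summaries of probe sets, and each array left out.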

Additional observations from a re-analysis of the deposited data

Results flagged for a closer look

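The 24 h responses of the tumour models differed by the test of the difference itself for Ctla4, which rose by 2.64 more on the log2 scale in MCA313 than in J558L tumour endothelium (adjusted p = 3.02e-05 in limma, higher in 2 of 2 arrays at 24 h than in the 3 at 0 h in MCA313). The time points differed for Mir329, which was higher at 48 h than at 24 h by 1.93 (adjusted p = 0.0303 in limma, higher in 2 of 2 arrays at 48 h).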

How the results depend on the processing

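The main counts at 24 h were 123 genes with the mean of probe sets and 30 with the brightest. With the MCA313 arrays alone they were 40 and 1 (Calhm6), and with the 5 arrays compared 63 and 0 (526 at an unadjusted p under 0.05). The median of probe sets gave 68. For the brightest probe set a stricter filter (75th percentile) gave 47 and array weights 60. Without 1 array the counts ranged from 14 to 123 and from 12 to 49. Between 48 h and 24 h, 1 gene was called; a stricter filter, array weights, the MCA313 arrays alone or the arrays compared gave 0 (145, 202, 253 and 206 unadjusted), and fits without 1 array 0 to 1, Il10 in place of Mir329 without the first 48 h array. The difference from J558L called 1 to 2 genes without 1 array, Ctla4 in each.

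Same-numbered samples did not deviate together (correlations of 0.04 between 0 h and 24 h and -0.08 between 24 h and 48 h). With so few arrays per group, these correlations cannot decide whether same-numbered samples were collected or processed together. With the replicate block the counts were 121 and 20 at 24 h and 1 in each other contrast.

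Of the named genes' values under alternatives 898 kept direction and side, 185 lost and 21 gained the call, and 8 changed sign. These were Aspm (0.51), Madcam1 (-0.032), Mfap4 (0.083) and Pln (-0.0029) with the brightest probe set, Madcam1 (-0.037) and Slc4a1 (0.033) with bright probe sets alone, Rgs5 without control replicate 1 (-0.22, in a range up to 0.87 over the fits without 1 array) and Socs3 (-0.11) with the median of probe sets. Of these, Aspm alone was called with the mean of probe sets. The causes were not tested. Fits that leave 1 array at 24 h assume that it varies like the other groups.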

Other observations

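Of the 123 genes called, 40 were members of a list, and 32 risers and 51 fallers belonged to none. The genes below were picked from these after their values were seen, and they stand for no gene group. Xrcc5, the Ku80 subunit of end joining, fell by 1.39 with all 21 probe sets lower. Mlh3, of mismatch repair, fell by 1.18 with all 13 lower, and Parpbp by 1.33. All 3 had 24 h means below the array medians, so their sizes are uncertain. Other repair genes, measured within the replication list, were not past the test, with Exo1 at -0.80, Brca1 at -0.69 and Rad51b at -0.04. Ace, the angiotensin-converting enzyme, went from 9.32, 9.05 and 9.37 to 7.98 and 8.01, a fall of 1.25 ± 0.31 with all 25 probe sets lower (adjusted p = 0.0273 in limma). Nppc, a natriuretic peptide that relaxes vessels, rose by 0.98, and Edn1, the constrictor endothelin, stood at -0.86 and was not past the test (adjusted p = 0.308 in limma). Fasn, the fatty acid synthase, fell by 1.17 with 38 of 40 probe sets lower.

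Tcf7, a transcription factor known from T cells, rose from 6.42, 6.89 and 7.02 to 7.88 and 8.12, by 1.22 ± 0.24 with all 14 probe sets higher (adjusted p = 0.00576 in limma). Batf3, known from dendritic cells, rose by 1.14, while Batf (0.15) and Ikzf3 (0.15) were not past the test. Timp3, an inhibitor of matrix proteases, rose by 1.37, from 9.12, 10.40 and 10.77 to 11.56 and 11.38. Of the 5 fits without 1 array, Tcf7 kept its call in 4, Mlh3, Parpbp, Batf3 and Timp3 in 3, Xrcc5 and Fasn in 2, and Ace and Nppc in 1.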
